A study of Mus musculus with 59 samples.

Results

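The usage of the VH genes of the Igh locus was compared between pro-B cells that carried the PAIR4 element in inverted orientation next to the remaining distal VH genes and pro-B cells with 2 wild-type Igh alleles. Members were chosen by the genotype in the labels and by the experiment number in the title. They comprise 9 VDJ-seq libraries, namely 3 of the genotype Igh P4inv/P4inv (P4inv) and the 6 Igh+/+ libraries of the same run (libraries whose titles share their leading digits), out of 48 VDJ-seq libraries and 59 samples of all kinds in the series. The labels name no run, so a run stands here for a group of experiment numbers. Whether its libraries were made together is not stated in the labels. All 9 were made from the genomic DNA of pro-B cells sorted by flow cytometry from mouse bone marrow, each from a single mouse. Both Igh alleles of the P4inv mice lack about 890 kb of the locus, from VH8-3 to VH1-79, and carry PAIR4 at the deletion point in reverse orientation and without V8.7E, the element downstream of the VH8-7 gene. Per the methods, the deletion was made first, and the insertion was made with the Floxin system (Cre-mediated insertion at a lox71 site) in embryonic stem cells derived from mice with the deletion. The Igh+/+ mice carry neither the deletion nor the insertion, so this comparison measures both changes together. The ages of the mice were not in the labels, and the labelled cell type cannot be checked against marker genes here, because the libraries hold DNA joints and no expression.

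Pro-B cells assemble the gene of the antibody heavy chain in 2 steps, joining a DH segment to a JH segment first and then a VH gene to the DJH joint. Each VH gene ends in a recombination signal sequence (RSS), a heptamer and a nonamer separated by a spacer, at which the RAG recombinase cuts. Distal VH genes lie far from the DH and JH segments and reach them through loops of the contracted locus, a process for which the B cell factor Pax5 is needed. PAIR elements are intergenic repeats among the distal VH genes that are bound by Pax5, E2A, CTCF and cohesin in pro-B cells, and PAIR4 gives rise to a long noncoding RNA at this stage.

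The VH genes next to the insertion are members of the VH1 family, and their RSSs are shown first, as the sites that the recombinase has to use on either side of the insertion. Sequences are from the C57BL/6 reference genome NCBIM37 (mm9), minus strand, 5′ to 3′, and directly follow the VH coding exon. Capitals mark the heptamer (7 bases) and the nonamer (9 bases), and lower case marks the spacer (23 bases). The primer positions of the genotyping assays put the downstream edge of the deletion at chr12:116237049-116237757 and the upstream edge at chr12:117126158-117126697, 888 to 889.6 kb apart. The 6 upstream genes, in order of distance from the insertion, are followed by the 6 downstream genes in the same order and by VH1-12, which lies 383 kb downstream.
VH1-80: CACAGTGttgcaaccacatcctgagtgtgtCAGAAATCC
VH1-81: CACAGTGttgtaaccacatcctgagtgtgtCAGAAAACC
VH1-82: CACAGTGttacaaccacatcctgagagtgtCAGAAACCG
VH1-83: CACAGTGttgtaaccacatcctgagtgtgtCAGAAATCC
VH1-84: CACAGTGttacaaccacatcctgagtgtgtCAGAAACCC
VH1-85: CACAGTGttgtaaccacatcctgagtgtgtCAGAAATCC
VH1-47: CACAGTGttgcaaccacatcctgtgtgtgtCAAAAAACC
VH1-43: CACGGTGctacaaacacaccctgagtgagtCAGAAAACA
VH1-42: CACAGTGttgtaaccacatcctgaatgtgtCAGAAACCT
VH1-39: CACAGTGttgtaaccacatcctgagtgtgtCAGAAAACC
VH1-37: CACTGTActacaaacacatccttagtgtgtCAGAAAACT
VH1-36: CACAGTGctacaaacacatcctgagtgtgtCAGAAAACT
VH1-12: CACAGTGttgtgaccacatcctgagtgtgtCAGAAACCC
The heptamer was CACAGTG in 10 of the 12 genes flanking the insertion and differed in VH1-43 and VH1-37, the genes with the lowest usage of the 12. The RSSs of VH1-81 and VH1-39, on opposite sides of the insertion, were the same letter for letter, and so were those of VH1-83 and VH1-85 (chr12:117201989-117202027 and chr12:117238200-117238238).

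The deposited value of each VH gene is its usage, the percentage of all unique VDJH and DJH joints of a library that contain the gene. The sum over all VH names of a library is therefore its percentage of VDJH joints, and the rest are DJH joints. No joint counts come with the percentages, and the depth of each library was not derived from them, so all errors are spreads between libraries. Each library listed 241 VH names, of which 183 have a known position. One Igh+/+ library, replicate 3, stood apart from the others in many measures, and the main comparisons are therefore also given without it. No 2 of the 9 libraries held identical values. Reads of close VH1 paralogs may be assigned to one another, so values of single VH1 genes carry that uncertainty.

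The mean percentage of VDJH joints was lower in P4inv, a difference that rests in part on Igh+/+ replicate 3. VDJH joints made up 39.0%, 39.3% and 46.7% of all joints in P4inv. In Igh+/+ they ranged from 46.5% to 78.8% with a median of 49.5%, and the highest value was that of replicate 3. Replicate 3 of P4inv was above 1 Igh+/+ library, so the groups overlapped slightly. The means were 41.7% ± 4.36 (SD, n = 3) and 54.7% ± 12.5 (SD, n = 6), a difference of -13.0 percentage points (exact two-sided permutation test, p = 0.0476 of 84 splits, which allow no p under 0.0238). Without replicate 3 the Igh+/+ mean was 49.8% ± 4.49 (SD, n = 5) and the difference -8.14 points, which no longer passed (exact permutation test, p = 0.0714). Because the libraries come from pools of sorted cells, fewer joints per cell and a smaller share of cells at the VDJH stage cannot be told apart.

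**Figure D1:**
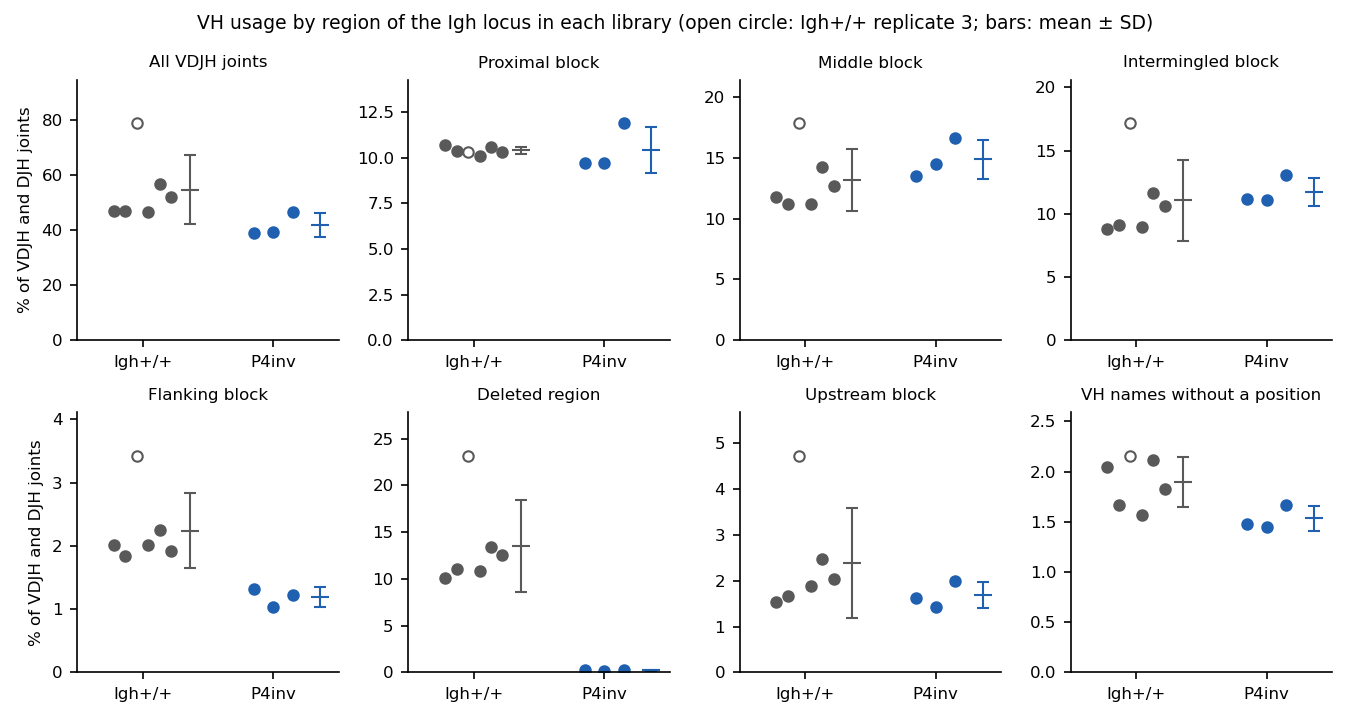
Usage (percent of VDJH and DJH joints) of all VH names together and of each part of the VH gene cluster, with 1 point per library (6 Igh+/+ in grey, replicate 3 as an open circle; 3 P4inv in blue) and bars for the mean ± SD. The flanking block is lower in every P4inv library than in any Igh+/+ library, whereas the proximal blocks overlap at means of 10.4%.

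The 49 listed VH names of the deleted region provided the check of the genotype. In Igh+/+ their summed usage reached 13.5% ± 4.89 (SD, n = 6), whereas 0.219% ± 0.0295 (SD, n = 3) was left in P4inv. VH8-8, the most used VH8 gene of Igh+/+ at 0.970% ± 0.581 (SD, n = 6), and VH8-7, the gene after which V8.7E is named, were listed at 0 in all P4inv libraries. Of the 49 names, 36 were above 0 in every Igh+/+ library, and 20 of these were at 0 in every P4inv library. Names at 0 in every P4inv library numbered 33, among them the 11 that were at 0 in every Igh+/+ library as well. The remaining 16 were above 0 in at least 1 P4inv library, led by VH1-64 at 0.0623%, 0.0761% and 0.0732% against a mean of 1.05% in Igh+/+, VH1-69 at 0.0493%, 0.0415% and 0.0857% against 0.551%, and VH1-56 at 0.0388%, 0.0249% and 0.0263% against 0.106%. Over 100 bases near the 3′ end of the coding exon, these 3 were compared with the 71 tested genes outside the deletion that have a match in the NCBIM37 annotation. None of the 71 was closer than VH1-12, with 4, 4 and 2 mismatches, but genes tied with it were not recorded. Likewise, none was closer than VH1-12 to VH1-53 and VH1-55 (4 mismatches each), which were at a mean of 0.00138% and 0.000828% in P4inv. The same held for VH1-62-3 and VH1-72 (4 and 5 mismatches), which were at 0 there. Whether the residual values are reads of VH1-12 was not tested.

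The VH names other than the 49 of the deletion had about the same summed usage in both genotypes. Together they reached 41.5% ± 4.34 (SD, n = 3) in P4inv and 41.1% ± 7.66 (SD, n = 6) in Igh+/+, or 38.2% ± 3.21 (SD, n = 5) without replicate 3. These sums include the 58 names without a position, which are not known to lie outside the deletion. The use of these names was more concentrated in P4inv than in the Igh+/+ libraries of the same run. The 10 most used took 36.3% ± 0.419 (SD, n = 3) of these joints in P4inv and 32.6% ± 0.993 (SD, n = 6) in Igh+/+. The effective number of genes, the count of equally used genes that would give the same diversity, was 61.1 to 62.1 in P4inv and 65.1 to 69.9 in Igh+/+, without overlap. Igh+/+ libraries of another run were at 61.6, 60.9 and 64.5, so this separation held only against those of the same run. In genotypes with the same deletion described below, the number was 54.4 to 59.1 (D890), 58.2 to 59.8 (P4), 57.0 to 62.2 (P4StopG) and 63.4 to 64.4 (EmG).

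By position, the usage was divided into the proximal block next to the DH segments (VH5-1 to VH5-19), the middle block (VH7-1 to VH6-7), the intermingled block in which VH1 genes alternate with other families (VH8-2 to VH1-26), the flanking block just downstream of the insertion (VH1-27 to VH1-47) and the upstream block beyond it (VH1-80 to VH1-86). The proximal block showed the same mean in both genotypes, 10.4% ± 1.25 (SD, n = 3) in P4inv and 10.4% ± 0.210 (SD, n = 6) in Igh+/+. The middle block was at 14.9% ± 1.63 (SD, n = 3) against 13.2% ± 2.56 (SD, n = 6), and the intermingled block at 11.8% ± 1.11 (SD, n = 3) against 11.1% ± 3.19 (SD, n = 6). None of these 3 blocks passed the test (exact permutation test, adjusted p = 0.833 for each), and none had an unadjusted p under 0.05. Without replicate 3 the middle block of P4inv was 1.22 times that of Igh+/+ (exact permutation test, adjusted p = 0.214).

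The blocks on both sides of the insertion had lower means in P4inv. The flanking block stood at 1.19% ± 0.151 (SD, n = 3) against 2.24% ± 0.596 (SD, n = 6) in Igh+/+, a ratio of 0.531, or 0.594 without replicate 3, and the highest P4inv library (1.32%) was below the lowest Igh+/+ library (1.84%). The upstream block stood at 1.68% ± 0.286 (SD, n = 3) against 2.39% ± 1.19 (SD, n = 6), a ratio of 0.704. Its groups overlapped, and the ratio was 0.876 without replicate 3, which alone reached 4.73%. These blocks were chosen with results of these data known and were therefore not tested as sums.

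The denominator decides the direction of several of these values. As a percentage of VDJH joints alone, the proximal block rose from 19.7% to 25.0%, the middle block from 24.2% to 35.7% and the intermingled block from 20.0% to 28.2% (exact permutation test, adjusted p = 0.0238 for each, the smallest possible). On this scale, which sums to the same total in every library, the deleted genes held 24.3% ± 2.69 (SD, n = 6) of the VDJH joints of Igh+/+ and 0.524% ± 0.0405 (SD, n = 3) of those of P4inv. The flanking block remained lower, at 0.703 of its Igh+/+ mean, and the upstream block was at 0.959. Without replicate 3 these ratios were 0.712 and 1.05 (chosen after seeing the data), so the upstream block was then above its Igh+/+ mean.

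**Figure D2:**
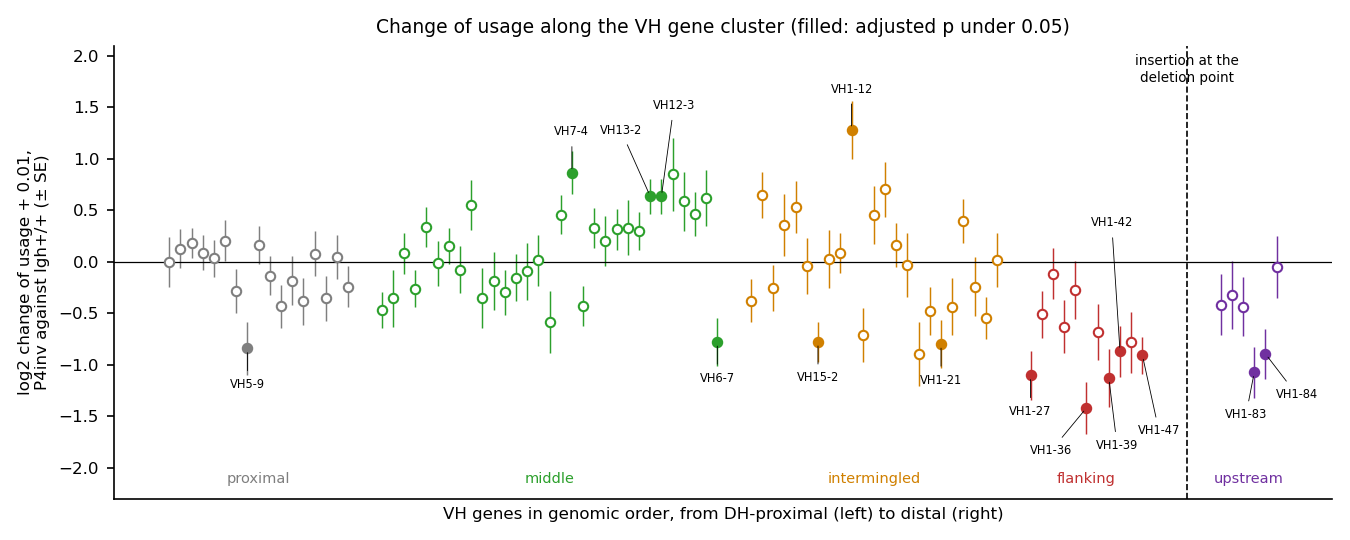
Change of usage in P4inv against Igh+/+ for the 88 tested VH genes in genomic order, as log2 of usage + 0.01% with bars for ± SE (limma), filled where the adjusted p was under 0.05 and coloured by block. All 11 tested genes of the flanking block and all 6 of the upstream block lie below 0, whereas 8 of 17 proximal, 18 of 31 middle and 11 of 23 intermingled genes lie above 0, and the 4 genes that passed with higher usage are in the middle and intermingled blocks.

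Single VH genes were compared by limma on log2(usage + 0.01%), with 88 genes outside the deletion tested. This scale understates the change of genes with low usage. Of the 88 genes, 15 passed an adjusted p of 0.05 (17.0%), 4 with higher usage in P4inv (4.55%) and 11 with lower usage (12.5%), while the median change over all genes was -0.11. Without replicate 3, 31 genes passed (35.2%), 13 higher and 18 lower, and they included all 15. Without that library limma found no spread between genes beyond the trend and pooled it fully, which makes its p-values small. The count depended on the P4inv libraries as well and was 9 without P4inv replicate 1 and 5 without P4inv replicate 2. Of the 15 genes, VH1-12, VH1-27, VH1-36, VH1-47 and VH7-4 passed in each of the 9 fits without 1 library, and the others lost the call in 1 to 5 of them. As a percentage of VDJH joints the split turned to 30 higher (33.0%) and 6 lower (6.59%) of 91 tested with a median change of 0.23. In this denominator the deleted genes hold a far larger share of the joints of Igh+/+ than of P4inv, which raises the values of the other genes in P4inv by construction. As a percentage of the joints outside the deletion (chosen after seeing the data) 8 genes were higher (8.51%) and 15 lower (16.0%) of 94 tested, with a median change of -0.15, and with each library centred on its median gene it was 13 higher and 7 lower.

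Genes with lower usage made up a larger share of the tested genes in the flanking and upstream blocks than in the others. The limits of these blocks were chosen with results of these data known, so the counts by block are descriptions. In the flanking block 5 of 11 tested genes passed, all lower, and in the upstream block 2 of 6, again lower, beside 12.5% of all tested genes. The proximal block had 1 lower gene of 17, the middle block 1 of 31 and the intermingled block 2 of 23. None of the flanking or upstream genes was higher. In 14 genes every P4inv library was below every Igh+/+ library (15.9%), 5 of them in the flanking, 2 in the upstream, 4 in the intermingled and 3 in the middle block. Without replicate 3, 6 of 11 flanking and 6 of 23 intermingled genes passed with lower usage.

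VH1-36, the most remote of the 6 downstream genes at 119 kb, showed the largest decrease on the scale of log2(usage + 0.01%). As a ratio of the group means, VH1-43 fell further (0.312, beside 0.337 for VH1-36). Its usage was 0.0993%, 0.0664% and 0.0714% in P4inv and 0.165% to 0.370% in Igh+/+ (median 0.204%). The groups did not overlap, and the log2 change was -1.42 (SE 0.25, limma adjusted p = 0.00436). VH1-39, whose RSS is that of VH1-81, was used at 0.230%, 0.170% and 0.224% in P4inv and at 0.357% to 0.999% in Igh+/+ (median 0.407%). Every P4inv library was again lower, and the log2 change was -1.13 (SE 0.28, limma adjusted p = 0.0133), or -0.91 without replicate 3.

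VH1-47, the gene closest to the insertion at 7.44 kb, was the most evenly used of the 12 genes in Igh+/+, at 0.473% to 0.530% (median 0.488%). It was used at 0.314%, 0.233% and 0.237% in P4inv, a log2 change of -0.91 (SE 0.18, limma adjusted p = 0.0059) that did not depend on replicate 3 (-0.90 without it). VH1-42 was at 0.133%, 0.104% and 0.128% in P4inv and at 0.184% to 0.411% in Igh+/+ (median 0.210%), with a log2 change of -0.87 (SE 0.24, limma adjusted p = 0.0205). The usage of VH1-43 and VH1-37, which have other heptamers, was low in all libraries, with means of 0.0159% and 0.0313% in Igh+/+ and 0.0050% and 0.0154% in P4inv. Their log2 changes of -0.78 and -0.68 did not pass (limma adjusted p = 0.0775 and 0.0900). VH1-27, at the far end of the flanking block, was used at 0.0851%, 0.0664% and 0.0638% in P4inv and at 0.118% to 0.261% in Igh+/+ (median 0.157%), and changed by -1.10 (SE 0.24, limma adjusted p = 0.00889), a call lost as a percentage of VDJH joints (limma adjusted p = 0.0669).

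On the upstream side, the 4 genes with the highest usage did not pass the test, and the 2 with the lowest did. VH1-81, the most used gene there, was at 0.618%, 0.556% and 0.852% in P4inv and at 0.592% to 2.05% in Igh+/+ (median 0.699%). The groups overlapped, and the log2 change of -0.32 had a 95% interval of -1.03 to 0.38 (limma adjusted p = 0.497) and was -0.06 without replicate 3. VH1-82 was at 0.468%, 0.425% and 0.514% in P4inv and at 0.449% to 1.33% in Igh+/+ (median 0.591%). Its change of -0.44 (95% interval -1.04 to 0.17, limma adjusted p = 0.274) did not pass either and was -0.23 without replicate 3.

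VH1-80, the upstream gene nearest to the insertion at 23.9 kb, was at 0.265%, 0.219% and 0.267% in P4inv and at 0.190% to 0.689% in Igh+/+ (median 0.315%), with a change of -0.42 (95% interval -1.05 to 0.21, limma adjusted p = 0.322), or -0.21 without replicate 3. VH1-85, at 112 kb, was at 0.192%, 0.162% and 0.267% in P4inv and at 0.149% to 0.458% in Igh+/+ (median 0.190%). Its change was -0.05 (95% interval -0.70 to 0.60, limma adjusted p = 0.944) and became 0.17 without replicate 3. In VH1-80, VH1-81, VH1-82 and VH1-85 alike, the highest Igh+/+ value was that of replicate 3, 2.31 to 2.90 times the mean of the other 5 libraries. At this spread a fall of VH1-81 by up to 1.03 on the log2 scale remained within the interval.

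Between these genes lie VH1-83 and VH1-84, which were lower in every P4inv library. VH1-83 was used at 0.0438%, 0.0235% and 0.0463% in P4inv and at 0.0623% to 0.128% in Igh+/+ (median 0.0846%), a log2 change of -1.07 (SE 0.25, limma adjusted p = 0.0104) that did not pass as a percentage of VDJH joints (limma adjusted p = 0.0529). VH1-84 was at 0.0358%, 0.0471% and 0.0476% against 0.0604% to 0.144% (median 0.0883%), a change of -0.89 (SE 0.24, limma adjusted p = 0.0195). The RSS of VH1-83 is that of VH1-85, which did not pass. VH1-86, the last gene of the cluster, was listed at 0 in all 9 libraries.

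**Figure D3:**
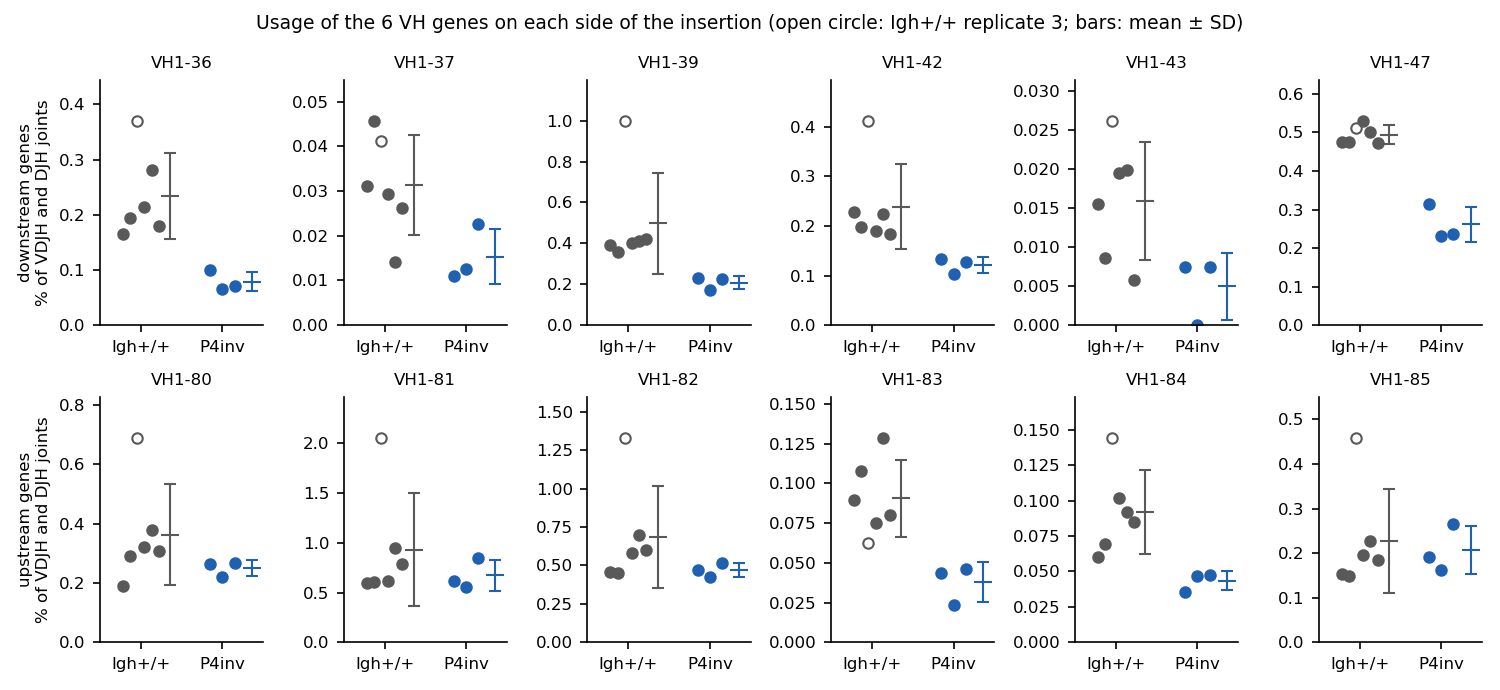
Usage (percent of VDJH and DJH joints) of the 6 genes downstream (top) and the 6 genes upstream (bottom) of the insertion, with 1 point per library (Igh+/+ grey, replicate 3 open; P4inv blue) and bars for the mean ± SD; each panel has its own axis from 0. VH1-36, VH1-39, VH1-42, VH1-47, VH1-83 and VH1-84 show no overlap between the genotypes, and the other 6 do.

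Summed over the 6 genes, the downstream side stood at 0.690% ± 0.105 (SD, n = 3) in P4inv and 1.51% ± 0.421 (SD, n = 6) in Igh+/+, a ratio of 0.456, or 0.514 without replicate 3. The upstream sum is that of the upstream block, since VH1-86 is at 0. All 6 genes of each side had a log2 change below 0, with a median of -0.89 downstream and -0.43 upstream beside -0.11 for all tested genes. Within single libraries the upstream sum was 2.04 to 2.89 times the downstream sum in P4inv and 1.18 to 2.01 times in Igh+/+. The balance between the sides was thus higher in every P4inv library than in any Igh+/+ library.

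Of the 4 genes with higher usage, 3 lie in the middle block and 1 in the intermingled block. VH1-12 rose most. It was used at 0.542%, 0.610% and 0.719% in P4inv and at 0.178% to 0.529% in Igh+/+ (median 0.224%), with a log2 change of 1.28 (SE 0.28, limma adjusted p = 0.00968). The highest Igh+/+ value was replicate 3 and came close to the lowest of P4inv. VH7-4 was at 0.0888%, 0.0789% and 0.105% in P4inv and at 0.0343% to 0.0625% in Igh+/+ (median 0.0445%), a change of 0.86 (SE 0.21, limma adjusted p = 0.0133).

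VH13-2 and VH12-3 are frequently used genes of small families, and VH12 is known from B-1 cell antibodies to phosphatidylcholine. VH13-2 was at 1.28%, 1.35% and 1.38% in P4inv and at 0.737% to 1.03% in Igh+/+ (median 0.837%), a change of 0.64 (SE 0.17, limma adjusted p = 0.0195). VH12-3 was at 1.24%, 1.28% and 1.42% against 0.645% to 0.952% (median 0.879%), with a change of 0.63 (SE 0.17, limma adjusted p = 0.0195). Neither gene had groups that overlapped. In 7 genes every P4inv library was above every Igh+/+ library (7.95%), the 4 called genes among them.

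For other genes of the middle and intermingled blocks the call depended on replicate 3 and on the denominator. VH6-3 was at 0.899%, 0.972% and 1.31% in P4inv and at 0.323% to 1.46% in Igh+/+ (median 0.526%), where the top value was that of replicate 3. Its change was 0.85 (SE 0.35, limma adjusted p = 0.0992) with that library and 1.11 without it (limma adjusted p = 5.67e-11). VH10-1, of a family known from antibodies to DNA, was at 1.31%, 1.30% and 1.58% against 0.687% to 1.47% (median 0.844%), with a change of 0.65 (SE 0.23, limma adjusted p = 0.0603) and 0.79 without replicate 3 (limma adjusted p = 7.38e-08). As a percentage of VDJH joints with all libraries, both passed, with changes of 1.22 (limma adjusted p = 0.00234) and 1.02 (limma adjusted p = 0.000103). Values of genes outside the deletion are raised in P4inv by construction on that scale. Without replicate 3 the 13 higher genes comprised 8 of the middle and 5 of the intermingled block (14.8% of all tested), and the 18 lower genes (20.5%) were found in all 5 blocks.

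Away from the insertion 4 genes were lower. VH15-2 was at 0.281%, 0.324% and 0.330% in P4inv and at 0.453% to 0.718% in Igh+/+ (median 0.530%), a change of -0.78 (SE 0.19, limma adjusted p = 0.0133). VH5-9 (-0.84), VH1-21 (-0.80) and VH6-7 (-0.78) also passed (limma adjusted p = 0.0275, 0.0239 and 0.0275), all with mean usages in Igh+/+ of 0.135% or less. These 3 calls were lost as a percentage of VDJH joints (limma adjusted p = 0.0709, 0.139 and 0.106), and in 3, 4 and 5 of the 9 fits without 1 library. They were lost without P4inv replicates 1 and 2 and Igh+/+ replicate 5 for VH5-9, without P4inv replicates 1 and 2 and Igh+/+ replicates 4 and 6 for VH1-21, and without P4inv replicates 2 and 3 and Igh+/+ replicates 1, 4 and 6 for VH6-7. The P4inv and Igh+/+ values of VH5-9 overlapped. VH5-2, the functional VH gene closest to the DH segments and the most used gene of Igh+/+, was at 2.73%, 2.61% and 2.96% in P4inv and at 1.58% to 2.99% in Igh+/+ (median 2.72%). Here replicate 3 was the lowest, and the change was 0.13 (95% interval -0.27 to 0.52, limma adjusted p = 0.641).

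By family, VH13 and VH12 had higher and VH15 lower summed usage in every P4inv library than in any Igh+/+ library, but no family passed the adjusted test. The VH genes outside the deletion form 15 families with measurable usage, and each sum was compared by an exact permutation test with adjustment over the 15. The sums leave out the 58 names without a position, which are mostly VH1, VH2 and VH5 names. None reached an adjusted p of 0.05, the smallest being 0.119 (exact permutation test), and 4 had an unadjusted p under 0.05. These 4 were VH12, with means of 1.41% in P4inv and 0.971% in Igh+/+, VH13, with 1.34% and 0.864%, VH11, with 0.857% and 0.618%, and VH15, with 0.312% and 0.547%. VH11, VH12, VH13 and VH15 are small families, and VH13 and VH15 each rest on 1 tested gene. VH11 is, like VH12, known from B-1 cell antibodies, and its groups overlapped.

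The large families did not pass the test in sum. VH1, the family of most distal genes, was at 11.4% ± 1.15 (SD, n = 3) in P4inv and 12.8% ± 4.42 (SD, n = 6) in Igh+/+, or 11.1% ± 1.49 (SD, n = 5) without replicate 3. Its sum hid opposite changes, as 8 of its 36 tested genes were lower and 1 was higher. VH5, which lies mostly in the proximal block, was at 6.66% ± 0.844 (SD, n = 3) against 6.55% ± 0.0786 (SD, n = 6). VH2, also proximal, was at 3.82% ± 0.430 (SD, n = 3) against 3.88% ± 0.173 (SD, n = 6), and VH3 was at 4.00% ± 0.320 (SD, n = 3) against 3.68% ± 0.553 (SD, n = 6).

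VH6 and VH10 overlapped between the genotypes only through replicate 3. VH6 was at 1.71%, 2.06% and 2.44% in P4inv and averaged 1.36% ± 0.622 (SD, n = 6) in Igh+/+, a ratio of 1.52, or 1.84 without replicate 3. VH10 was at 2.19%, 2.27% and 2.68% and averaged 1.63% ± 0.571 (SD, n = 6), a ratio of 1.46, or 1.69 without it. Without replicate 3 the groups of both families no longer overlapped (exact permutation test, adjusted p = 0.0893 each), as was true of VH8, VH12, VH13 and VH15. VH8, which outside the deletion rests on VH8-2 alone among tested genes, was at 0.505% ± 0.0422 (SD, n = 3) against 0.671% ± 0.133 (SD, n = 6). VH4, VH7, VH9 and VH14 had ratios of 1.08, 0.864, 0.952 and 0.756, and of 1.11, 0.915, 1.10 and 0.906 without replicate 3, so that the ratio of VH9 moved from below to above 1. As a percentage of VDJH joints 10 families passed, 9 of them higher, and VH15 was the lower one. On that scale the missing joints of the deleted genes raise the other families in P4inv by construction.

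**Figure D4:**
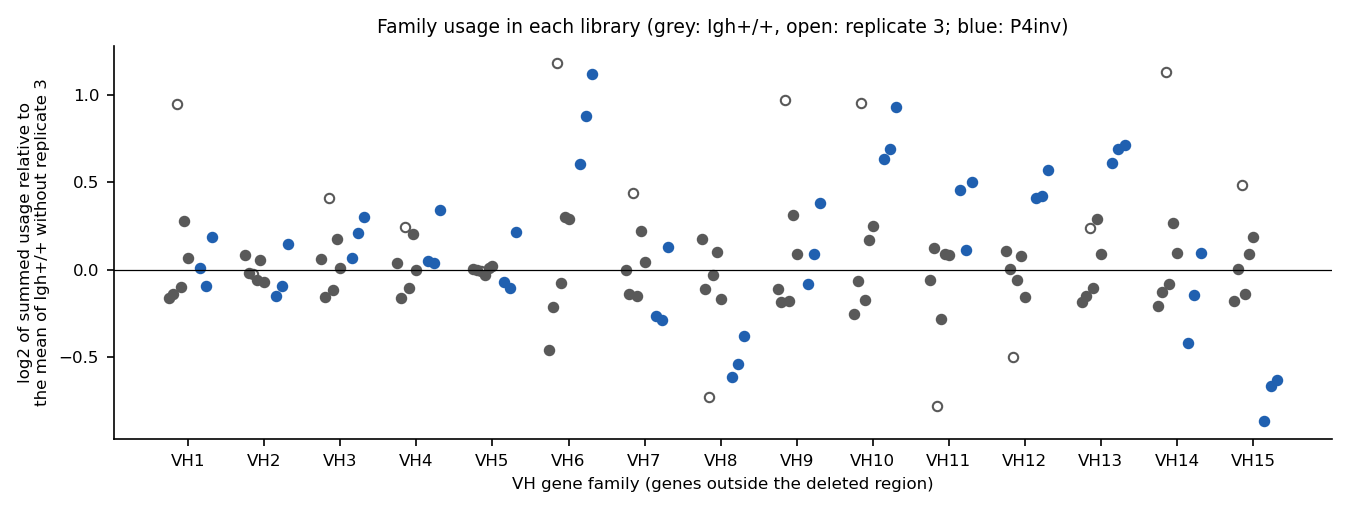
Summed usage of each VH family outside the deletion in each library, as log2 relative to the mean of the Igh+/+ libraries without replicate 3 (grey points Igh+/+, open circle replicate 3, blue points P4inv). VH12 and VH13 lie above and VH15 below all Igh+/+ points, and replicate 3 is the highest Igh+/+ point in 9 families.

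RSS features were compared along the whole cluster, since all genes keep their own RSS on the P4inv allele. Of the 88 tested genes, 71 were matched by name to the NCBIM37 annotation, and in 60 of them a CAC trinucleotide followed the annotated exon directly. The heptamer was CACAGTG in 44 and another in 16. The median usage in Igh+/+ was 0.493% for the former and 0.316% for the latter, and the median log2 change in P4inv was -0.13 and 0.11. These medians are descriptions, because neighbouring genes share both family and position.

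The inverted element was then set beside 3 other genotypes with the same deletion. Igh P4/P4 (P4) carries PAIR4 in forward orientation, Igh Δ890/Δ890 (D890) has no insertion, and Igh P4StopG/P4StopG (P4StopG) carries the forward element with a transcription stop, with 3 libraries each. P4 and D890 have 3 Igh+/+ libraries of their own runs each, and P4StopG shares the 6 Igh+/+ libraries of P4inv, so their changes against Igh+/+ are not independent. The 6 upstream genes together reached 1.00 times the Igh+/+ sum of the same run in P4, 0.704 in P4inv, 0.700 in P4StopG and 0.366 in D890. The 6 downstream genes reached 0.516, 0.456, 0.483 and 0.298 times in the same order. Without replicate 3 of the shared Igh+/+ libraries, the upstream ratio was 0.876 in P4inv and 0.871 in P4StopG, closer to that of P4, and the downstream ratio was 0.514 and 0.545. The order of P4 and P4inv rests on the Igh+/+ libraries of the runs, whose upstream sums were 1.40% ± 0.262 (SD, n = 3) for P4 and 2.39% ± 1.19 (SD, n = 6) for P4inv. The upstream usage itself was 1.40% ± 0.0493 (SD, n = 3) in P4 and 1.68% ± 0.286 (SD, n = 3) in P4inv. As a percentage of VDJH joints it was 4.18% ± 0.146 (SD, n = 3) in P4 against 3.20% ± 0.0214 (SD, n = 3) in its Igh+/+ libraries, and 4.02% ± 0.333 (SD, n = 3) in P4inv against 4.20% ± 0.963 (SD, n = 6).

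No VH gene passed the test of the difference between the changes in P4inv and P4, each against the Igh+/+ libraries of its run (limma, 0 of 87 genes at an adjusted p of 0.05 and 0 at an unadjusted p under 0.05). Compared directly, without the Igh+/+ libraries, 35 genes were higher in P4inv than in P4 (40.2%) and 0 lower (limma adjusted p under 0.05), and genotype and run cannot be told apart in that comparison. Limma also pooled the spread between genes fully there, which makes its p-values small. In the test against Igh+/+, VH6-7 and VH1-20 had the smallest p, with differences of -0.87 (SE 0.43) and -0.76 (SE 0.42). Of the upstream genes, the largest difference was that of VH1-80, -0.65 (SE 0.41, limma adjusted p = 0.978), with log2 changes of -0.42 in P4inv and 0.24 in P4. VH1-36 differed by -0.67 (SE 0.41) and VH1-47 by 0.10 (SE 0.26), both with a limma adjusted p of 0.978, and compared directly VH1-36 was at 0.22 (limma adjusted p = 0.565). The 95% interval of the difference reached from -1.50 to 0.19 for VH1-80, so that a change of this size between the orientations could not be told from none with these libraries.

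The test of the difference between the changes in P4inv and D890 depended on replicate 3. With all libraries, 0 of 88 genes passed (limma, 7 at an unadjusted p under 0.05), whereas in a direct comparison across runs 44 were higher in P4inv (50.0%). VH1-82 came first, with log2 changes of -0.44 in P4inv and -1.83 in D890, a difference of 1.39 (SE 0.42, limma adjusted p = 0.273). Without replicate 3, 22 genes passed (25.0%), all with the higher change in P4inv. They were led by VH1-82 (1.60, SE 0.24, limma adjusted p = 7.68e-09), VH1-80 (1.24, SE 0.26), VH1-81 (1.02, SE 0.23) and VH1-85 (1.10, SE 0.28), 4 of the 6 upstream genes. VH1-83 and VH1-84 did not pass. The other 18 genes were spread over the flanking, intermingled, middle and proximal blocks. Limma pooled the spread between genes fully in the fit without replicate 3 and in the direct comparison, which makes their p-values small.

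Within the same run, P4inv and P4StopG were compared directly, and 0 of 88 genes passed (limma, 12 at an unadjusted p under 0.05). The spread between genes was pooled fully in this fit too. VH1-12, VH6-3 and VH5-17 were first, with usage higher in P4inv by 0.74 (SE 0.25), 0.66 (SE 0.23) and 0.72 (SE 0.26) on the log2 scale (limma adjusted p = 0.160 each). Of the upstream genes, VH1-85 was higher in P4inv by 0.62 (SE 0.29, limma adjusted p = 0.325) and VH1-81 by 0.01 (SE 0.24, limma adjusted p = 0.998).

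**Figure D5:**
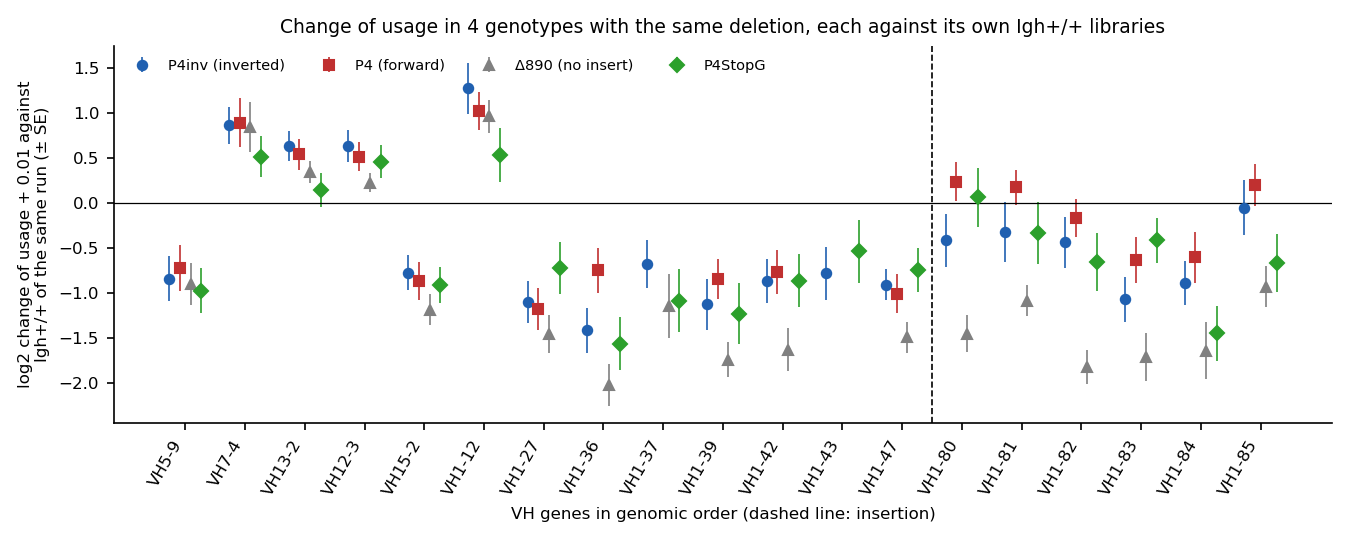
Log2 change of usage + 0.01% (± SE, limma) of 19 VH genes in 4 genotypes with the same deletion, each against the Igh+/+ libraries of its own run, in genomic order with the insertion as a dashed line; P4inv and P4StopG share their Igh+/+ libraries, and points are missing where a gene was too low to be tested. Upstream of the insertion D890 lies lowest for each gene, and VH1-12 lies above 0 in all 4 genotypes.

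Several changes away from the insertion were found in these genotypes as well. The log2 change of VH1-12 was 1.02 in P4 (limma adjusted p = 8.03e-05), 0.96 in D890 (limma adjusted p = 1.17e-06) and 0.53 in P4StopG (limma adjusted p = 0.220), beside 1.28 in P4inv. VH15-2 changed by -0.87, -1.19 and -0.91 in the same order, beside -0.78 in P4inv, and passed in all 4. VH5-9 changed by -0.72, -0.90 and -0.98, beside -0.84, and passed in all 4 as well. That of VH7-4 was 0.90, 0.85 and 0.52, beside 0.86, and did not pass in P4StopG. Values were 0.54, 0.35 and 0.14 for VH13-2 and 0.52, 0.22 and 0.46 for VH12-3, beside 0.64 and 0.63 in P4inv. In VH13-2 the change passed in P4 and D890, and in VH12-3 in P4 alone of the 3.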

How the data were processed

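VDJ-seq was done on genomic DNA of sorted pro-B cells. Per the labels and the study's methods, sheared DNA was ligated to adapters with unique molecular identifiers, extended from JH primers, captured, amplified and sequenced in paired-end mode, and unique joints were assigned to VH genes by the pipeline of Chovanec et al. The deposited values are percentages of all unique VDJH and DJH joints, normalized in this way by the authors. They carry no counts, and the depth was not derived from them. The submitters' processing notes name Bowtie 0.12.5, STAR 2.4.2, featureCounts 1.5.0, R 3.3.3, SAMtools, bedtools, mm9 and mm10 for the series as a whole, without saying which were used for these libraries.

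Usage was summed over all VH names, families and position blocks (58 of the 241 names have no position and enter only the percentage of VDJH joints and the sum, top-10 share and effective number over names outside the 49 deleted). Sums were compared by exact two-sided permutation tests of the difference of means over all assignments of the libraries to the groups, adjusted by the Benjamini-Hochberg method over 15 families or 3 blocks. Single genes were compared with limma 3.58.1 in R 4.3.3 (trended empirical Bayes) on log2(usage + 0.01), for the genes not deleted whose mean usage reached 0.01%. P-values were adjusted over all genes tested, with a threshold of 0.05. The fit was also run on simulated data with changes larger than any observed here and without a library that stands apart. That run does not show how well changes of the observed size are found. Intervals are 95% limma intervals. Replicate numbers follow the order of the sample records and pair nothing. Per the study's figure legends each library came from 1 mouse. RSSs and distances were read from the NCBIM37 genome and annotation with Python 3.11.15.

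The genes named are the 6 genes on each side of the insertion, VH1-27, VH1-86 and VH8-7, up to 10 higher and 10 lower genes past the threshold without overlap, the most used gene of each family, the 3 deleted genes with the highest residual usage, and up to 5 genes of each further contrast with the smallest p. VH5-9, the sole further called gene, was named after its values were seen. Members and lists were chosen with earlier results of these data known. Alternatives comprised the denominator, centring, pseudocount, filter, variance model, control libraries and each library left out.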

Additional observations from a re-analysis of the deposited data

Results flagged for a closer look

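In 29 of 60 groups of Igh+/+ values examined, 1 library lay further from its nearest neighbour, relative to the range of the group, than 95% of samples from a normal distribution would, and in all 29 this was replicate 3. Chance gives about 5% of groups. Its VDJH joints made up 78.8% of all joints. By region it was highest in the flanking (3.43%), intermingled (17.2%), upstream (4.73%) and deleted (23.2%) blocks, and in the downstream sum (2.36%). By family it was highest in VH1 (21.4%), VH6 (2.54%), VH9 (3.07%), VH10 (2.72%) and VH14 (2.48%). Among single genes it was highest in VH1-85 (0.458%), VH1-82 (1.33%), VH1-81 (2.05%), VH1-42 (0.411%), VH1-39 (0.999%), VH1-12 (0.529%), VH1-26 (2.96%), VH3-6 (2.39%), VH8-8 (2.14%), VH10-1 (1.47%), VH9-3 (1.70%), VH6-3 (1.46%), VH14-4 (0.916%), VH1-64 (2.14%), VH1-69 (0.954%) and VH1-56 (0.196%). It was lowest in VH5-2 (1.58%). The main comparisons are given with and without this library in the report, and why it stands apart was not tested. These groups share joints and are not independent.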

How the results depend on the processing

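No paired analysis was possible because the labels carry no replicate numbers. VH1-12, VH1-36 and VH1-47 kept their call in all 9 fits without 1 library and in all 16 other settings, and VH1-27 and VH7-4 in all 9. Replicates 5 and 6 of Igh+/+ carry the experiment numbers directly before those of P4inv. The lower VDJH percentage did not pass with replicates 5 and 6 of Igh+/+ alone as controls (-12.7 points, exact permutation test, p = 0.200, the smallest that 2 controls allow) or with the 15 Igh+/+ libraries of 4 runs (-5.78 points, permutation test over all splits, p = 0.299), and without 1 library it ranged from -15.5 to -8.14 points. It passed in 1 of the 6 tests without an Igh+/+ library, whereas the 3 without a P4inv library could not pass (smallest possible exact permutation p = 0.0714).

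The count of 15 VH genes was 36 as a percentage of VDJH joints, 36 with array weights and 25 with replicates 5 and 6 as controls, and 5 to 31 without 1 library. With array weights and with replicates 5 and 6 as controls limma pooled the spread between genes fully, which makes its p-values small. Alternatives chosen after seeing the data gave 23 as a percentage of the joints of the genes outside the deletion, and, without replicate 3, 56 as a percentage of VDJH joints and 28 with the other Igh+/+ libraries and a run term. Over VDJH joints alone 10 families and 3 blocks passed, and 12 and 3 also without replicate 3 (chosen after seeing the data). The upstream ratio was 0.959 and the downstream ratio 0.606 over VDJH joints, and without 1 library they ranged from 0.639 to 0.876 and from 0.422 to 0.514. Compared directly, across runs, 35 genes were higher in P4inv than in P4 and 44 than in D890; VH1-36 then differed from P4 by 0.22. Over VDJH joints 1 gene passed against D890 and 1 against P4StopG. Without 1 library, 0 to 22 genes passed against D890, 22 only without replicate 3.

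Directions turned for values near 0. Without 1 library the ranges were, in points, VH1 -2.03 to 0.31, VH2 -0.30 to 0.10, VH5 -0.38 to 0.39, VH9 -0.24 to 0.16 and the proximal block -0.69 to 0.40, and, in log2 change, VH1-26 -0.074 to 0.21, VH1-85 -0.24 to 0.17, VH4-1 -0.012 to 0.17, VH5-2 -0.0067 to 0.18 and VH9-3 -0.25 to 0.11. Over VDJH joints the family differences became 4.37 (VH1), 1.80 (VH2), 0.255 (VH7), 0.876 (VH9) and 0.0395 (VH14) points, and 5.19, 1.30, 0.201, 1.01 and 0.186 points also without replicate 3. On the same scale the log2 change was 0.31 for VH1-85, 0.043 for VH1-81 and 0.27 for VH9-3, and also without replicate 3 0.42, 0.19 and 0.37, with VH1-82 at 0.027 and VH1-80 at 0.035. With median centring VH1-85 was at 0.18 and VH9-3 at 0.13. With array weights VH1-85 was at 0.064, VH5-2 at -0.024 and VH9-3 at 0.073. With replicates 5 and 6 as controls VH1-26 was at -0.050 and VH4-1 at -0.0145, and as a percentage of the joints outside the deletion VH1-26 was at -0.0065. With the run term and without replicate 3 VH1-85 was at 0.17, VH5-2 at -0.0067 and VH9-3 at 0.11. The causes were not tested. The missing joint counts and 3 P4inv libraries limit what can be detected for genes of low usage.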

Other observations

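The VH names without a position in the gene order (58 of 241) are mostly VH1, VH2 and VH5 names and together made up 1.53% ± 0.122 (SD, n = 3) of the joints in P4inv and 1.90% ± 0.247 (SD, n = 6) in Igh+/+. Of these names, 31 were above 0 in every Igh+/+ library. Among the 31, 22 were also above 0 in every P4inv library, and 7 were at 0 in all 3 P4inv libraries; of the 36 deleted names above 0 in every Igh+/+ library, 20 were. The 7 are VH1S5, VH1S15, VH1S36, VH1S40, VH1S56, VH1S126 and VH8-8-1, named after their values were seen. VH1S5 had the highest usage of them, at 0.0574% to 0.0763% in Igh+/+. Their place in the locus was not used here. Names whose values overlapped between the genotypes included VH1-87, at 0.433%, 0.334% and 0.514% in P4inv and 0.396% to 0.553% in Igh+/+, and VH2-5-1, at 0.146%, 0.161% and 0.217% against 0.142% to 0.218%.

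Igh EμG/EμG (EmG), a further genotype of the same run in which the Eμ enhancer of the locus, linked to Gfp, was placed at the same deletion point, had an upstream sum of 2.58% ± 0.391 (SD, n = 3) and a downstream sum of 0.895% ± 0.0452 (SD, n = 3), beside 1.68% and 0.690% in P4inv. Its ratio of upstream to downstream usage was 2.37 to 3.37 per library, against 2.04 to 2.89 in P4inv.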
